A study of Mus musculus with 11 samples.

Results

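The chemokine system of the mouse epidermis was examined as 59 protein-coding genes among the 52550 genes of the table, chosen by symbol alone: every gene named Ccl, Cxcl, Ccr or Cxcr with a number, together with Xcl1, Xcr1, Cx3cl1, Cx3cr1 and Ackr1 to Ackr4. They comprise 37 ligands, 18 signalling receptors and 4 atypical receptors. RNA-seq was performed on sorted keratinocytes (KCs) and dendritic epidermal T cells (DETCs) from flank epidermis of 8-week-old female mice. The LC-/- mice were huLangerin-DTA animals, labelled DTA, in which the human langerin promoter drives the A subunit of diphtheria toxin so that Langerhans cells (LCs) are missing from birth, and the controls were wild type (WT) littermates. KCs came from 3 WT mice (W1 to W3) and 3 LC-/- mice (L1 to L3), and DETCs from 3 WT mice (W1 to W3) and 2 LC-/- mice (L2 and L3), which made 11 libraries. W and L numbers stand for the numbers in the sample labels, which do not state whether a KC and a DETC library of 1 number came from the same mouse. KCs were sorted as live MHC-II-, CD45-, langerin- and c-kit- cells and DETCs as live MHC-II-, CD45+, langerin- and c-kit- cells, without a T cell receptor stain, so the DETC gate could also hold other CD45+ cells.

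Chemokines are small secreted proteins that direct the migration of leukocytes. They act through G protein-coupled receptors, whereas the atypical receptors (ACKRs) bind chemokines without classical G protein signalling and remove or redistribute them. Keratinocytes are an epithelial source of several chemokines in skin, and T cells that settle in the epidermis carry a characteristic set of chemokine receptors, among them Ccr4, Ccr8, Ccr10 and Cxcr6.

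The libraries held 13491075 to 19750440 reads assigned to genes, and the 59 genes took 0.116% to 0.153% of them. Values below are normalized counts, the reads of a gene divided by the size factor of its library, so that 1 read was worth 0.825 to 1.11. Of the 59 genes, 36 passed the study's filter (CPM, counts scaled to library size, above 1 in at least 2 libraries) and were tested: 20 ligands, 13 receptors and 3 atypical receptors. Another 9, all ligands, had no read in any library, and 14 had reads but did not pass, with at most 22 reads in a library. Cd207, which encodes langerin, had a normalized count of 6.15, 26.9 and 15.6 in WT KCs and 0 in the 3 LC-/- KC libraries, and of 21.8, 16.5 and 46.7 in WT DETCs and 0 and 4.42 in LC-/- DETCs. Keratinocyte markers (16 genes, among them Krt5 and Krt14) summed to 649300 to 698600 in KC libraries and 103700 to 169700 in DETC libraries, with the highest DETC value in L2. DETC markers (17 genes, Ccr6 and Cxcr6 included) summed to 272800 to 301000 in DETC libraries and 353 to 672 in KC libraries.

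Ligands and receptors were largely divided between the populations. In WT mice, 21 of the 36 tested genes were higher in DETCs than in KCs and 13 were lower (limma on log2 of the normalized count plus 1, Benjamini-Hochberg adjusted p under 0.05 over all 14419 tested genes). Over all tested genes 41% were called higher in DETCs and 35.1% lower. All 13 signalling receptors were higher in DETCs, with a median log2 difference of 8.46, and all 3 atypical receptors were lower, with a median of -2.45. Of the 13, 9 had at most 3 reads in each KC library, as had 5 of the 20 ligands. Such genes passed the filter through DETC libraries alone, so their direction was fixed in advance in WT and LC-/- mice. The 20 ligands were split, 8 being higher in DETCs and 10 lower. In LC-/- mice, 20 genes were higher and 12 lower, against 38.1% and 32.1% of all tested genes, again with all 13 receptors higher and the 3 atypical receptors lower. Scaling by quantile normalization moved the median log2 difference of all genes from 0.07 to -0.24 in WT mice and from 0.08 to -0.28 in LC-/- mice. The split of all calls then changed from 5906 higher and 5059 lower to 4693 and 6658 in WT mice, and from 5497 and 4629 to 4196 and 6401 in LC-/- mice.

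**Figure D1:**
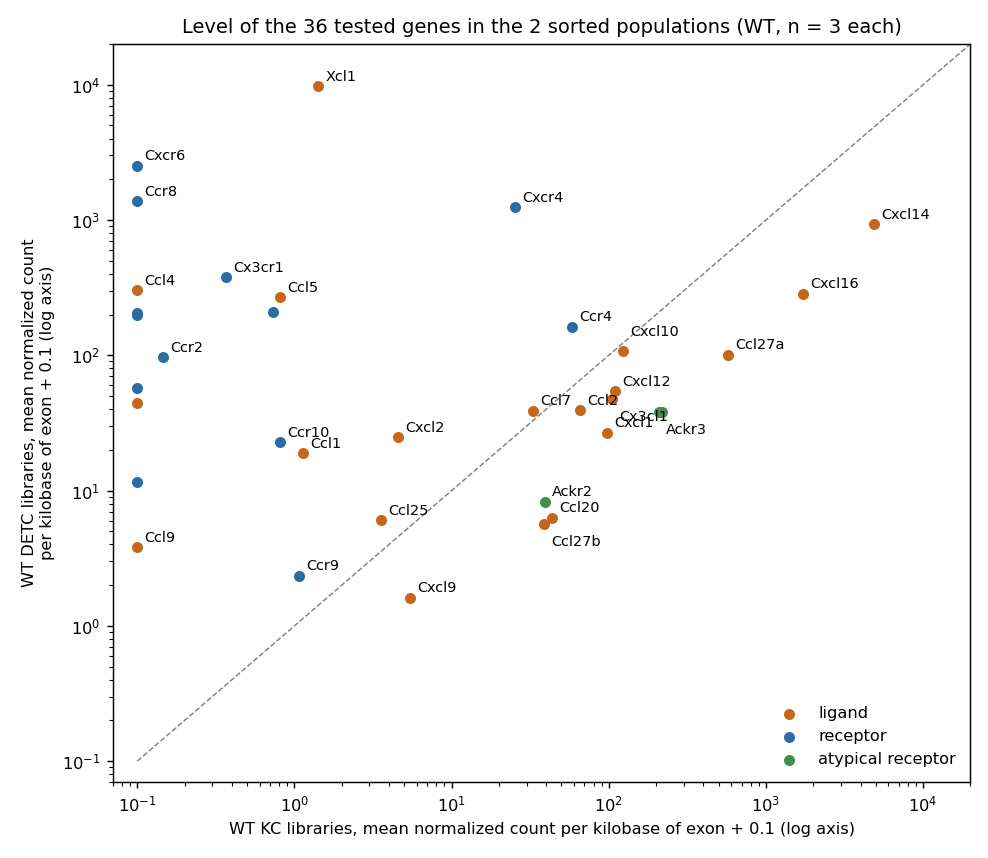
Mean normalized count per kilobase of exon (plus 0.1, log axes) of the 36 tested genes in the 3 WT KC libraries (horizontal) and the 3 WT DETC libraries (vertical), with ligands in orange, receptors in blue and atypical receptors in green. The dashed line marks equal levels: every receptor lies above it, the atypical receptors lie below it, and ligands lie on both sides. Some points are unlabelled.

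Compared per kilobase of exon, which allows levels of different genes to be set side by side, the leading ligand in KCs was Cxcl14, a homeostatic epithelial chemokine, at 4540 normalized counts per kilobase over the 6 KC libraries. Cxcl16, the transmembrane ligand of Cxcr6, followed at 2200 and Ccl27a, the skin ligand of Ccr10, at 540. Cxcl12 (124), Cxcl10 (119), Cx3cl1 (103), Cxcl1 (86) and Ccl20 (58.1) came next. The receptor side of KCs was led by atypical receptors, Ackr3 at 174 and Ackr4 at 173 per kilobase, followed by Ccr4 (47), Ackr2 (30.2) and Cxcr4 (22). Of the 13 tested signalling receptors, 5 had no read in any of the 6 KC libraries (among them Ccr1, Ccr6, Ccr8 and Cxcr3), and 9 had at most 3 reads in each. Ccr4 and Cxcr4 were the signalling receptors with a normalized count above 20 in every KC library.

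In DETCs the leading ligand was Xcl1, a lymphocyte chemokine that attracts Xcr1+ dendritic cells, at 9040 normalized counts per kilobase over the 5 DETC libraries. It exceeded the signal of the next ligands, Cxcl14 (973), Ccl4 (374), Cxcl16 (370) and Ccl5 (311). The receptors were led by Cxcr6 at 2590 per kilobase, then Ccr8 (1370), Cxcr4 (990), Cx3cr1 (346), Ccr7 (278), Cxcr3 (181), Ccr6 (151) and Ccr4 (128). Cxcr6, a receptor of tissue-resident lymphocytes, had normalized counts of 4429, 5485 and 4700 in WT DETCs and 0 in each WT KC library. Setting the KC value at the limit of 3 reads per library, Cxcr6 was at least 1730-fold higher in WT DETCs, Ccr8 at least 572-fold, Ccr6 at least 163-fold and Cxcr3 at least 126-fold. This limit covers counting error only. Xcr1, the receptor of Xcl1, was not tested, with 1.94 to 12.2 normalized counts in DETC libraries and 0 in KC libraries.

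Many of the chemokine genes that were higher in KCs had a DETC signal of the size at which keratinocyte markers appeared in the DETC libraries. For the 16 keratinocyte markers the mean in WT DETCs was 9.32% to 33.1% of that in WT KCs (median 15.9%), and in LC-/- mice it was 10.4% to 34.7% (median 20.5%). Among tested chemokine genes with a KC mean of at least 10, 14 had a higher mean in WT KCs. Of these, 10 lay inside this range, among them Cxcl16 (16.7%), Ccl27a (17.5%), Cxcl14 (19%) and the atypical receptors Ackr4 (17.4%), Ackr3 (18.2%) and Ackr2 (20.9%). The other 4 lay above it: Cx3cl1 at 45.5%, Cxcl12 at 49.6%, Cxcl10 at 87.5% and Ccl2, the ligand of Ccr2. In LC-/- mice 7 of 12 lay inside the range and 5 above it (Ccl2, Ccl7, Cx3cl1, Cxcl1 and Cxcl12). Ccl27b, with a mean of 7.35 in LC-/- KCs, was not among the 12 and lay below the range at 6.61%. Whether keratinocyte RNA gave the DETC signal of the genes inside the range was not tested. In the other direction, DETC markers reached at most 2.03% of their DETC level in WT KCs (median 0.00696%). Ccr4 was not of that kind. It had 236, 160 and 143 normalized counts in WT KCs and 553, 507 and 443 in WT DETCs, so that its DETC mean was 280% of its KC mean.

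Several ligand and receptor pairs were split between the 2 populations. For Cxcl16 and Cxcr6, the ligand was at 1710 normalized counts per kilobase in WT KCs and 286 in WT DETCs, and the receptor at 0 and 2520. The same arrangement held for Ccl20 and Ccr6 (ligand 43.5 and 6.2, receptor 0 and 198), for Ccl27a and Ccr10 (ligand 573 and 101, receptor 0.704 and 22.7) and for Cx3cl1 and Cx3cr1 (ligand 104 and 47.4, receptor 0.268 and 376). Cxcl12 was at 109 in WT KCs and 54 in WT DETCs, its signalling receptor Cxcr4 at 25.2 and 1240, and its atypical receptor Ackr3 at 208 and 38. By contrast, the inflammatory ligands Ccl3 (44.6), Ccl4 (302) and Ccl5 (268) were in WT DETCs and stood at 0, 0 and 0.712 in WT KCs. Ccr1, a receptor of Ccl3, was at 11.4 in WT DETCs and 0 in WT KCs. Some abundant receptors had few counted reads of their ligands in either population. Ccr8 stood at 1370 in WT DETCs, with its ligand Ccl1 at 1.04 in WT KCs and 18.7 in WT DETCs and Ccl8 at 0 in both. Ccr7 stood at 208 in WT DETCs and its ligands Ccl19 and Ccl21a had no counted read in any library. Ccl21a has a copy, Ccl21b, and how reads that match both were counted is not stated in the sources used here. Cxcl10, an interferon-induced ligand of Cxcr3, did not pass the test between populations in WT mice (log2 difference -0.20, 95% interval -0.63 to 0.22, limma adjusted p = 0.349), and neither did Ccl7 (0.17, -0.55 to 0.89, adjusted p = 0.64).

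The 250 bases before a RefSeq transcription start are shown for 7 genes of the genotype comparisons below. For Ackr4 and Ccr4 this window lies inside the gene span given below (chr9:104084157-104126933 and chr9:114490316-114504916) and not before it. Cxcl12, Ackr3, Ackr4, Ccr4 and Ccr6 were called there by limma, and Ackr2 and Ccl20 by DESeq2 and edgeR but not by limma. NF-kB and other factors known to act on chemokine genes can bind in such windows. The sequences are from RefSeq (GRCm38.p6), which gave a window for 44 of the 59 genes. Cxcl16 and Ccr7, also called below, had no window. Both strands were searched for NF-kB, AP-1 (TGANTCA), STAT (TTCNNNGAA), FOXO (GTAAACA) and ETS (CCGGAAGT) motifs, with NF-kB given by its name. Capitals mark the matches, NF-kB in Ackr2 and Ccl20, AP-1 in Ccr4 and STAT in Ccr6, and each run of capitals is a match to 1 motif. Sequences are written 5′ to 3′ on the strand of the gene.
Ackr2 (chr9:121898105-121898354, plus strand): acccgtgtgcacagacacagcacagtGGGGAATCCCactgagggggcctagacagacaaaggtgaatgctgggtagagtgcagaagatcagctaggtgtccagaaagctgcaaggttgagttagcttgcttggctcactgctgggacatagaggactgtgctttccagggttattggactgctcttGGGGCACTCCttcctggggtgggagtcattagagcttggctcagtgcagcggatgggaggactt
Ackr3 (chr1:90203730-90203979, plus strand): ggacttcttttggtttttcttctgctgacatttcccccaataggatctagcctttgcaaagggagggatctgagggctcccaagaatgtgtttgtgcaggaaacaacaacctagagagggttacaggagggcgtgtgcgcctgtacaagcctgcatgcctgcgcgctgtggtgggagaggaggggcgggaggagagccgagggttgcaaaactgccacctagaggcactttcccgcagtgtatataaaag
Ackr4 (chr9:104126644-104126893, minus strand): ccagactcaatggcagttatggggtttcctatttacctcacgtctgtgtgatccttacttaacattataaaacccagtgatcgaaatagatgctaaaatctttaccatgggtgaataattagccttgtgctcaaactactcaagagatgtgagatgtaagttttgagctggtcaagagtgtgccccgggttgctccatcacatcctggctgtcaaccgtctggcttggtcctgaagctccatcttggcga
Ccl20 (chr1:83116516-83116765, plus strand): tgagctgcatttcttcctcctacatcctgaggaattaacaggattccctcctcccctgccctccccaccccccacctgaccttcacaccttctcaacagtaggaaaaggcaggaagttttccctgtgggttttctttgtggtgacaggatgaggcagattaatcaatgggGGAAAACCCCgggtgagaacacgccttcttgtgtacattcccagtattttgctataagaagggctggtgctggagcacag
Ccr4 (chr9:114496545-114496794, minus strand): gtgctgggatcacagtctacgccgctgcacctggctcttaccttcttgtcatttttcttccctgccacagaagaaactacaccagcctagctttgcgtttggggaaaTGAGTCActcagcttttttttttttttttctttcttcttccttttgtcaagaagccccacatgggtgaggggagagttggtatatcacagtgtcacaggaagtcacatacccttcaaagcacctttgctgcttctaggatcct
Ccr6 (chr17:8235793-8236042, plus strand): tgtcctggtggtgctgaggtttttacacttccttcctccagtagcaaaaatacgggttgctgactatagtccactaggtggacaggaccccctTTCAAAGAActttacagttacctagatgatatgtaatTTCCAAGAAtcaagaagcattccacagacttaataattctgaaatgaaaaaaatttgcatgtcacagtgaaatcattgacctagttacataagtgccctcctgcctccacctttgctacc
Cxcl12 (chr6:117168285-117168534, plus strand): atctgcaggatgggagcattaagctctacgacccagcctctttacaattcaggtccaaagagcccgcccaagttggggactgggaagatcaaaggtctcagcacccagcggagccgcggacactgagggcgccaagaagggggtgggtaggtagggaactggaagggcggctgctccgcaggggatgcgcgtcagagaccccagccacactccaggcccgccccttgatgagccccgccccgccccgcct

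The NF-kB motif was in the windows of 8 of the 44 genes (18.2%), against 3.9% of the 32851 windows of all genes. The windows of all genes include several starts for some genes, whereas the 44 genes gave only the start nearest the annotated gene start. The tested genes with the motif were Ackr2 and Ccl20, shown above, and Ccl9, Cxcl1, Cxcl2 and Cxcl10. The matches in Cxcl1, Cxcl2 and the untested Cxcl3 have the same letters, so these genes are not independent cases. AP-1 was in 11.4% of the 44 windows and 6.75% of all, STAT in 6.82% and 7.02%, and FOXO and ETS in 0% of the 44 and in 3.17% and 2.88% of all. These shares describe letters in a fixed window and not binding. The windows of Ackr3, Ackr4 and Cxcl12 held none of the 5 motifs.

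To ask how the absence of LCs bears on chemokine genes of KCs, LC-/- and WT libraries were compared within KCs. The ligands Cxcl16 and Cxcl12 rose, and the atypical receptors Ackr3 and Ackr4 fell. These 4 genes were the calls among 36, 2 higher and 2 lower (limma, adjusted p under 0.05), against 5.37% of all tested genes called higher and 1.85% called lower. By class, 2 of 20 ligands were higher, 2 of 3 atypical receptors were lower, and of the 13 receptors 1, Ccr4, had an unadjusted p under 0.05. The median log2 fold change of the 36 genes was -0.06 and that of all tested genes -0.01. In 3 genes all LC-/- libraries lay above all WT libraries, and in 7 all lay below, where 16.6% and 14.9% of all tested genes did so. Of the 36 genes, 9 receptors and 5 ligands had at most 3 reads in each KC library and could show little change. Filtered within KC libraries, 18 genes were tested, with a median of -0.20, against -0.02 for all 12913 genes. Of the 18, 3 were called higher and 5 lower, where 1170 and 581 of the 12913 were. In bulk RNA a lower level in each cell and fewer cells that express a gene cannot be told apart.

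Cxcl16 (chr11:70453983-70459984) had normalized counts of 4893, 5097 and 5549 in WT KCs and 7780, 8290 and 8313 in LC-/- KCs. The groups were far apart relative to their spread, with means of 5180 ± 336 (SD, n = 3) and 8128 ± 301 (SD, n = 3). The log2 fold change was 0.65 ± 0.06 (SE), with a limma adjusted p of 0.0193. Cxcl16 shares 18.3% of its exon bases with Zmynd15 on the opposite strand, whose mean in KCs was 78.5 normalized counts. Cxcl12 (chr6:117168535-117181367), which binds Cxcr4 and Ackr3, had 852, 888 and 931 in WT KCs and 1213, 1118 and 1075 in LC-/- KCs. Its change was smaller, 0.35 ± 0.06 (log2, SE, adjusted p = 0.0383), and the groups did not overlap. Ccl20, the ligand of Ccr6, had 51.2, 56.6 and 77.8 in WT KCs and 121, 83.5 and 105 in LC-/- KCs. Its log2 fold change of 0.74 ± 0.22 did not pass (limma adjusted p = 0.113), although the groups did not overlap, and DESeq2 and edgeR on the recovered reads gave adjusted p values of 0.0218 and 0.0316. Over all alternatives, those without 1 library included, the adjusted p ran from 0.0218 to 0.274.

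Ackr3 (chr1:90203980-90216751), a scavenger of Cxcl12, had normalized counts of 690, 707 and 695 in WT KCs and 507, 447 and 452 in LC-/- KCs. The WT libraries were close to each other, with a mean of 697 ± 8.75 (SD, n = 3) against 469 ± 33.3 (SD, n = 3) in LC-/- KCs, and the log2 fold change was -0.57 ± 0.06 (SE, limma adjusted p = 0.0193). Ackr4 (chr9:104084157-104126933), a scavenger of Ccl19, Ccl21 and Ccl25, had 1329, 964 and 1229 in WT KCs and 686, 661 and 722 in LC-/- KCs. It fell by 0.75 ± 0.13 on the log2 scale (SE, adjusted p = 0.0376). Ackr4 shares 8.9% of its exon bases with Acad11 on the opposite strand. Acad11 also fell in LC-/- KCs (log2 fold change -0.34, adjusted p = 0.0419), and because the strand setting of the counting is not stated in the sources used here, reads of the shared bases cannot be told apart. Ackr2, the scavenger of inflammatory CC chemokines, had 130, 122 and 115 in WT KCs and 77.1, 49.9 and 71.5 in LC-/- KCs. Its log2 fold change was the most negative of the 3, -0.90 ± 0.19, and missed the threshold (adjusted p = 0.0545), while DESeq2 and edgeR called it (adjusted p = 0.00135 and 0.00612, range over all alternatives, those without 1 library included, 0.00135 to 0.169).

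**Figure D2:**
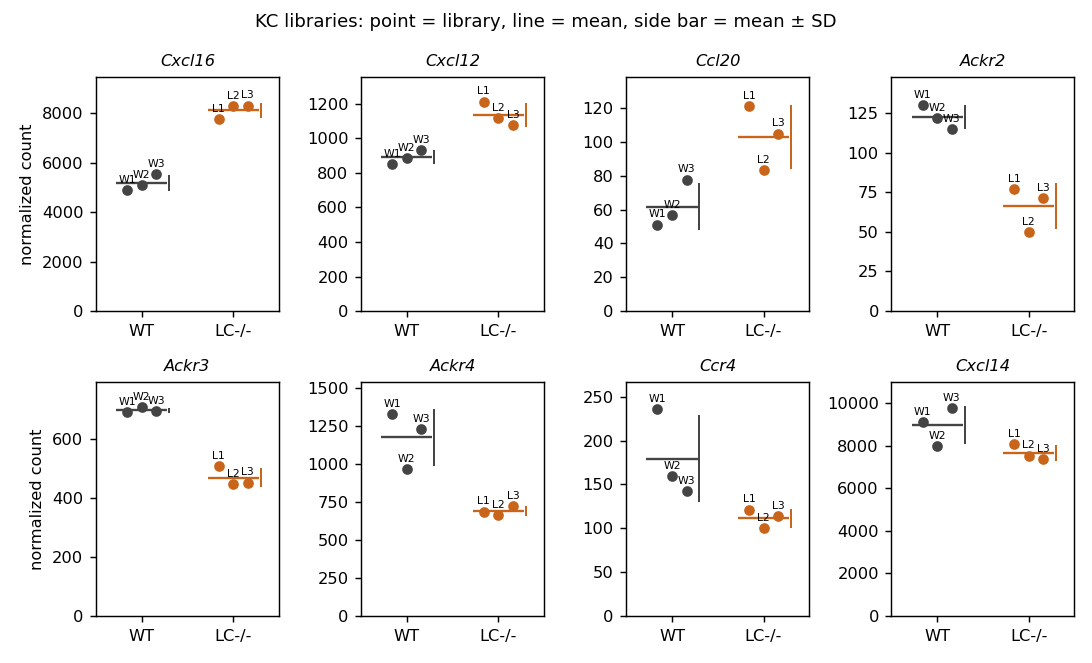
Normalized count in each KC library for 8 chemokine genes, with 3 WT libraries in grey and 3 LC-/- libraries in orange. Lines are means, side bars the mean ± SD, and axes start at 0. Cxcl16, Cxcl12 and Ccl20 are higher in every LC-/- library, Ackr2, Ackr3, Ackr4 and Ccr4 are lower in every LC-/- library, and Cxcl14 overlaps.

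Among the signalling receptors of KCs, Ccr4 had 121, 99.8 and 113 normalized counts in LC-/- libraries, each below the WT values given above (log2 fold change -0.65 ± 0.21, limma adjusted p = 0.131, DESeq2 0.0107, range over all alternatives, those without 1 library included, 0.0107 to 0.263). Cxcr4 had 55.3, 42.7 and 38.9 in WT KCs and 34.2, 28.5 and 39.9 in LC-/- KCs, and overlapped. Another 4 ligands had an unadjusted p under 0.05 without passing the adjusted threshold, all with negative log2 fold changes: Ccl2 at -0.79 (adjusted p = 0.134), Ccl27b at -1.08 (0.139), Ccl27a at -0.18 (0.188) and Cxcl14 at -0.22 (0.189). Ccl2, a monocyte attractant, had 63.5, 69.6 and 91.6 in WT KCs and 49.6, 30.5 and 50.4 in LC-/- KCs. Ccl27a and Ccl27b are near-identical copies between which reads can be split, so their separate values are uncertain. The leading ligand Cxcl14 had 9104, 7988 and 9774 in WT KCs and 8072, 7530 and 7380 in LC-/- KCs, and the 95% interval of its log2 fold change ran from -0.44 to just below 0. For Cx3cl1 the interval was narrow, from -0.20 to 0.14. Ccl22, a dendritic cell ligand of Ccr4 that was not tested and was picked out after its values were seen, had 9.22, 1.86 and 6.92 in WT KCs and 1.1, 0 and 0 in LC-/- KCs.

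The calls in KCs were sensitive to leaving out 1 library. Over all genes such fits called 5 to 552 higher and 0 to 169 lower, against 775 and 267 with every KC library. Leaving out 1 library at a time, the adjusted p of Cxcl16 ran from 0.033 to 0.0806 and was above 0.05 without W1, W2, L1 or L3, and that of Ackr3 ran from 0.0411 to 0.0778, under 0.05 only without L2. For Ackr4 it was 0.0555 to 0.115 and for Cxcl12 0.066 to 0.123, above 0.05 without any 1 of the 6. The call of Cxcl12 was also lost without a filter, with quantile normalization, without trend and in 1 fit over all 11 libraries (adjusted p up to 0.127 over all alternatives), and that of Ackr4 without a filter. Ackr2 was under 0.05 without L2 (adjusted p = 0.0488). Langerhans cell markers were lower in the same LC-/- KC libraries: 3 of 11 tested were called lower (Cd207, H2-Aa and Cd74), and the sum of the 15 listed was 336 to 500 in WT KCs and 172 to 271 in LC-/- KCs. The part of residual LC transcripts in the chemokine values was not tested. Keratinocyte markers did not move with genotype as a list, with 1 of 16 called (Dsg3, higher) and a median log2 fold change of 0.03.

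In DETCs the genes called for genotype were receptors. Ccr4 and Ccr6 fell and Ccr7 rose in LC-/- mice. In all, 2 of 36 genes were called higher and 2 lower (limma, adjusted p under 0.05), where 3.13% of all tested genes were called higher and 0.43% lower. None of the 20 ligands or the 3 atypical receptors was called by limma, with 2 ligands (Cxcl16 and Ccl20, higher) and 2 atypical receptors (Ackr3 and Ackr4, lower) among the genes at an unadjusted p under 0.05, besides Ccl7 (lower). The median log2 fold change of the 36 genes was 0.01, as compared with 0.02 for all tested genes. In 5 genes both LC-/- libraries lay above the 3 WT libraries and in 9 below, against 21.3% and 16.5% of all tested genes.

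Ccr6 (chr17:8236043-8257141), the receptor of Ccl20 and a marker of IL-17-producing γδ T cells, had normalized counts of 383, 396 and 602 in WT DETCs and 223 and 149 in LC-/- DETCs. The higher LC-/- library lay well below the lowest WT library. The log2 fold change was -1.30 ± 0.24 (SE), with an adjusted p of 0.0327. Ccr4 (chr9:114490316-114504916), a skin-homing receptor for Ccl17 and Ccl22, had 265 and 217 in LC-/- DETCs against 553, 507 and 443 in WT DETCs, a log2 fold change of -1.06 ± 0.14 (SE, adjusted p = 0.0161). Cxcr4, the receptor of Cxcl12, had 1835, 2152 and 2751 in WT DETCs and 817 and 1409 in LC-/- DETCs. Its log2 fold change of -1.05 ± 0.24 was near that of Ccr4, but the adjusted p was 0.058 (DESeq2 0.00043, edgeR 0.0601, range over all alternatives, those without 1 library included, 0.00043 to 0.355). Cx3cr1, the fractalkine receptor, had 1688, 1632 and 1765 in WT DETCs and 1330 and 1380 in LC-/- DETCs. The groups did not overlap and the change was small, -0.32 ± 0.08 (limma adjusted p = 0.0805, DESeq2 0.0148, range over all alternatives, those without 1 library included, 0.0148 to 0.754).

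Ccr7 (chr11:99144196-99155077), which guides cells toward lymph nodes, had normalized counts of 332, 425 and 476 in WT DETCs and 683 and 838 in LC-/- DETCs. Its log2 fold change was 0.90 ± 0.17 (SE, adjusted p = 0.0333). The 2 most abundant receptors of DETCs were not called and had narrow intervals. Cxcr6 (chr9:123806475-123811760) had 4771 and 5621 in LC-/- DETCs, overlapping the WT values given above, and the 95% interval of its log2 fold change ran from -0.19 to 0.37. Ccr8 had 1389, 1781 and 1661 in WT DETCs and 1486 and 1752 in LC-/- DETCs, with an interval of -0.28 to 0.31. For the leading ligand Xcl1, the counts were 5225, 4187 and 5854 in WT DETCs and 4332 and 4040 in LC-/- DETCs (log2 fold change -0.27, interval -0.59 to 0.05).

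**Figure D3:**
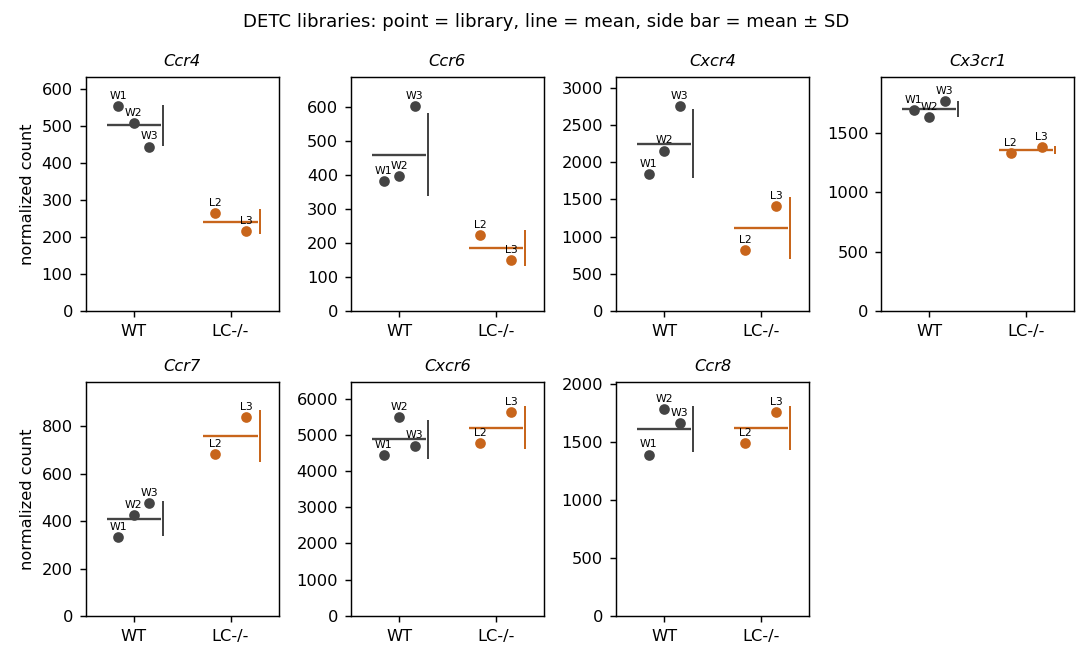
Normalized count in each DETC library for 7 receptors, with 3 WT libraries in grey and 2 LC-/- libraries in orange. Lines are means, side bars the mean ± SD, and axes start at 0. Ccr4, Ccr6, Cxcr4 and Cx3cr1 are lower and Ccr7 is higher in both LC-/- libraries, whereas Cxcr6 and Ccr8 overlap.

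These receptor calls were sensitive to leaving out 1 library. Without 1 library, the adjusted p of Ccr4 ran from 0.0262 to 0.0628 and was above 0.05 without W2 or W3. For Ccr6 it was 0.0592 to 0.0818 and for Ccr7 0.053 to 0.0953, above 0.05 without any 1 of the 5. The call of Ccr7 was also lost without a filter, with quantile normalization, without trend and in 1 fit over all 11 libraries (adjusted p up to 0.392 over all alternatives). Those of Ccr4 and Ccr6 were lost without a filter and without trend (up to 0.179 and 0.255). Without L3, Cxcr4 was called (adjusted p = 0.0149), and so were Cxcl16 (0.0121), Ccr10 (0.0491) and Cxcr3 (0.0327), where the lone LC-/- library is assumed to vary like the WT libraries. With eBayes run without a trend, limma called 0 of 14419 genes in DETCs, while 13 chemokine genes (5 higher, 8 lower) had an unadjusted p below 0.05. DESeq2 called 3 higher and 4 lower, and edgeR 2 and 2. The list of dermal γδ T17 cell markers holds Ccr6 and Ccr2. Of its 13 tested genes 3 were called lower (Ccr6 itself and Il7r among them), with a median log2 fold change of -0.73. Its 11 genes other than Ccr6 and Ccr2 summed to 8679, 10121 and 9815 in WT DETCs and 8550 and 7663 in LC-/- DETCs. The DETC list had 2 of 17 called lower, Ccr6 and Trdv4. The Langerhans cell list had 4 of 11 called lower, all of the MHC class II pathway (H2-Aa, H2-Ab1, H2-Eb1 and Cd74), and 1 called higher, which was Ccr7 itself. The median log2 fold change of that list was -1.22, and its 14 genes other than Ccr7 summed to 1740 to 2062 in WT DETCs and 1271 and 1427 in LC-/- DETCs. Of 12 dissociation and immediate early genes 1 was called higher (Ier3), with a median of 0.37, and they summed to 310500 to 373100 in WT DETCs and 384800 and 443700 in LC-/- DETCs. Keratinocyte markers had a median of 0.28 and none of 16 was called. The part of these cell types and of cell handling in the receptor values was not tested.

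Of the genes that led in KCs, Cxcl16, Ccl20, Ackr3 and Ackr4 did not pass the test within DETCs, although their groups did not overlap. Cxcl16 had 865, 761 and 964 normalized counts in WT DETCs and 1893 and 1095 in LC-/- DETCs (log2 fold change 0.74 ± 0.21, limma adjusted p = 0.108, DESeq2 0.00977, range over all alternatives, those without 1 library included, 0.00977 to 0.459). Ccl20 had 8.73, 9.9 and 7.78 in WT DETCs and 35 and 17.7 in LC-/- DETCs (1.41 ± 0.42, adjusted p = 0.12). In both genes the highest library was L2, which also had the highest sum of keratinocyte markers, 169700 against 103700 to 121900 in the other 4 DETC libraries. The keratinocyte sum of the remaining LC-/- library, L3, was 108700. Ackr3 had 124, 119 and 138 in WT DETCs and 84.5 and 73 in LC-/- DETCs (-0.69 ± 0.18, adjusted p = 0.0831), and Ackr4 228, 162 and 222 against 136 and 128 (-0.61 ± 0.19, adjusted p = 0.128). In 1 fit over all 11 libraries Cxcl16, Ccl20 (adjusted p = 0.019), Ackr3 (0.00502) and Ackr4 (0.0429) were called in DETCs, and over all alternatives the adjusted p was 0.019 to 0.517 for Ccl20, 0.00502 to 0.239 for Ackr3 and 0.0429 to 0.347 for Ackr4. The part of keratinocyte RNA in these values was not tested.

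**Figure D4:**
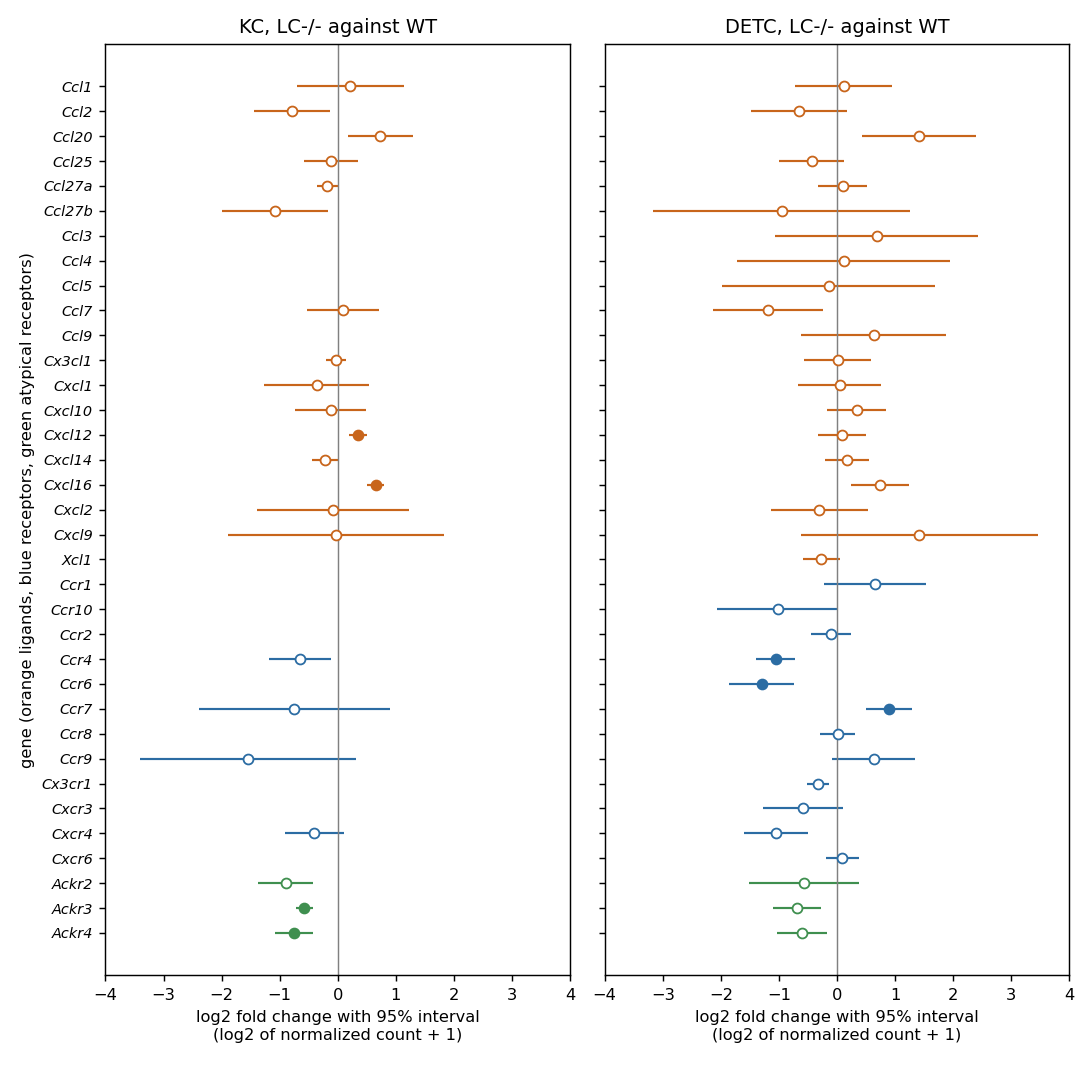
Log2 fold change between LC-/- and WT with its 95% interval for the tested genes reported here in KCs (left) and DETCs (right), by class. Filled points have a limma adjusted p under 0.05, open points do not, and genes with at most 3 reads in every KC library are left blank on the left. The filled points are Cxcl12, Cxcl16, Ackr3 and Ackr4 in KCs and Ccr4, Ccr6 and Ccr7 in DETCs.

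Whether the effect of LC absence differed between the populations was tested with an interaction term over all 11 libraries. None of the 36 genes was called by limma, DESeq2 or edgeR, where limma called 0.617% of all tested genes with a higher (more positive) change in DETCs than in KCs and 0.18% with a lower one. At an unadjusted p under 0.05, 3 chemokine genes were higher (Ccr7 and Ccr9 among them) and 2 lower (Ccr6 and Ccl7), against 7.3% and 4.04% of all tested genes. Ccr6 had the lowest p (interaction -1.30, 95% interval -2.21 to -0.39, adjusted p = 0.237). Since no KC library held a read of Ccr6, this value equals the fold change within DETCs. For Cxcl12, called in KCs alone, and for Ccr4, called in DETCs alone, a difference between the populations was thus not shown. Leaving out KC library L2, Ccr9 was called (adjusted p = 0.0383).

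The inflammatory CC ligands varied widely among DETC libraries of 1 genotype. Ccl5 had normalized counts of 143, 356 and 273 in WT DETCs and 72.8 and 647 in LC-/- DETCs, so that the 2 LC-/- libraries were the lowest and the highest of all. Ccl4 had 108, 309 and 181 in WT DETCs and 68 and 568 in LC-/- DETCs, and Ccl3 had 22.9, 38.8 and 40.8 in WT DETCs and 18.4 and 154 in LC-/- DETCs. Accordingly the 95% intervals of the log2 fold change were wide, -1.98 to 1.69 for Ccl5, -1.72 to 1.95 for Ccl4 and -1.07 to 2.43 for Ccl3, and these data set little limit on a genotype difference. Cd8a, a marker on the αβ T cell list, had 786, 2092 and 1716 in WT DETCs and 378 and 2825 in LC-/- DETCs, and ordered the 5 libraries as Ccl4 and Ccl5 did. Of the other listed genes, Trac, Cd8b1 and Cd28 kept this order, and Cd4, Cd5, Cd40lg, Foxp3, Trbc1 and Trbc2 did not. Trbc1 had 3408, 2495 and 2683 in WT DETCs and 3215 and 3079 in LC-/- DETCs. The 10 αβ T cell markers summed to 13980, 18500 and 15640 in WT DETCs and 10600 and 21650 in LC-/- DETCs, with a median log2 fold change of -0.18 between genotypes. Cxcr3, the receptor of Cxcl9 and Cxcl10, had 336, 432 and 298 in WT DETCs and 161 and 341 in LC-/- DETCs. The part of αβ T cells in these values was not tested.

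**Figure D5:**
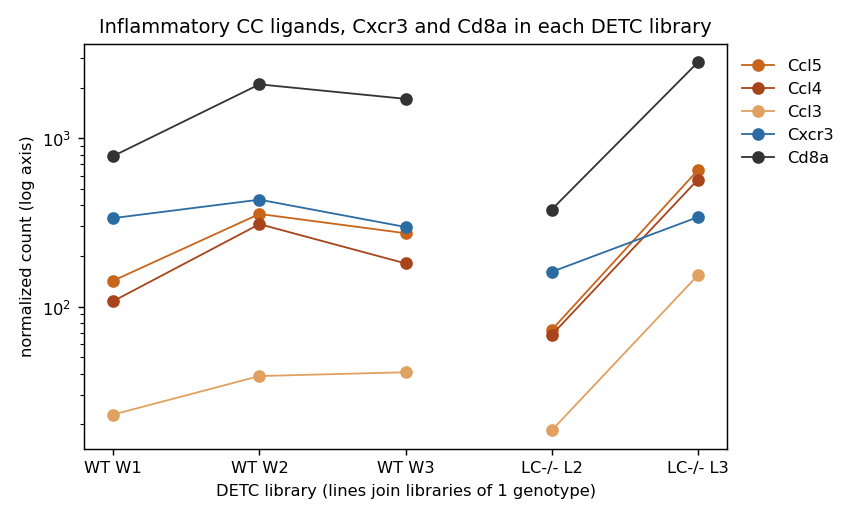
Normalized count (log axis) of Ccl5, Ccl4, Ccl3, Cxcr3 and Cd8a in the 5 DETC libraries, with lines joining libraries of 1 genotype. LC-/- library L2 is lowest and L3 highest for Ccl3, Ccl4, Ccl5 and Cd8a, on either side of the WT libraries. Not all αβ T cell markers followed this pattern (Trbc1, not shown, did not).

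The remaining tested genes were not called for genotype and are given as values. In DETCs Ccr2, the receptor of Ccl2 and Ccl7, had 644, 739 and 578 normalized counts in WT libraries and 527 and 693 in LC-/- libraries. Ccr10 had 38.2, 45.4 and 34 against 10.7 and 32.1, and Ccr9, the receptor of Ccl25, 18.6, 23.1 and 27.2 against 39.8 and 32.1. Both were separate by genotype, Ccr10 lower and Ccr9 higher in LC-/- libraries, with adjusted p values of 0.267 and 0.319 (limma). Ccr9 shares 18.8% of its exon bases with AC165425.1 on the opposite strand, whose mean in DETCs was 12.2 normalized counts. The Ccr9 values are therefore uncertain. Ccr1 had 36, 19 and 41.8 against 41.8 and 57.5 and overlapped. Ccl7 had 40.4, 18.2 and 35 in WT DETCs and 12.6 and 12.2 in LC-/- DETCs (log2 fold change -1.19 ± 0.41, adjusted p = 0.164). In KCs the neutrophil attractant Cxcl1 had 129, 149 and 272 in WT libraries and 175, 98.7 and 143 in LC-/- libraries, and Cxcl10 had 226, 328 and 277 against 232, 201 and 343. Both ligands overlapped between genotypes. Ccl25 shares 2.7% of its exon bases with the far more abundant Elavl1 on the opposite strand, so its 20.4 to 45.7 normalized counts are uncertain.

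Of the genes that were not tested, Ccl8, Ccl12, Ccl19, Ccl21a, Ccl21b, Ccl26, Cxcl5, Cxcl15 and Cxcl17 had no read in any library. Reads were found for Ccl6, Ccl11, Ccl17, Ccl22, Ccl24, Ccl28, Cxcl3, Cxcl13, Ccr3, Cxcr1, Cxcr2, Cxcr5, Xcr1 and Ackr1. Ccr3, the eotaxin receptor, was detected in DETC libraries alone, at 14.2, 10.7 and 16.5 normalized counts in WT libraries and at 8.74 and 17.7 in LC-/- libraries. The erythrocyte and endothelial receptor Ackr1 had at most 2.1.

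Downstream of the receptors, 36 genes of chemokine signalling and modification (G proteins, arrestins, receptor kinases, RGS proteins, Rac and Rap exchange factors, sulfotransferases and the protease Dpp4) were all tested. In KCs 2 were called higher, Ptk2b and Jak2, where 5.37% of all tested genes were, with a median log2 fold change of 0.00095 against -0.01 for all tested genes. In DETCs 1 was called higher, Ptk2b, where 3.13% of all tested genes were, with a median of 0.02. Both counts are near the share of all genes. Ptk2b, a kinase activated by chemokine receptors and by other calcium signals, had 795, 748 and 809 normalized counts in WT KCs and 941, 986 and 988 in LC-/- KCs (log2 fold change 0.31, limma adjusted p = 0.0269). In DETCs it had 16580, 16720 and 17410 in WT and 25100 and 22950 in LC-/- libraries (0.51, adjusted p = 0.0455). Ptk2b values were thus separate by genotype in both populations. Among all tested genes, 16.6% in KCs and 21.3% in DETCs were likewise separate and higher in LC-/- libraries. The call of Ptk2b in DETCs was lost without trend, where limma called 0 of 14419 genes. Among 8 chemokine-related genes with other names, 5 were tested, and Cd74, a receptor of Mif and the MHC class II invariant chain, was called lower in both populations.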

How the data were processed

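Genotype, population and replicate were taken from the sample labels. Per the study's methods, adapters were removed with cutadapt, hisat2 was used for alignment to GRCm38, featureCounts gave reads per gene, and the authors scaled these counts by median-of-ratios size factors. The deposited values are thus a signal on the scale of counts, and 0 columns could not be mapped to a sample. Every value lay within 0.0014 reads of a whole multiple of its library's value of 1 read, so whole reads were recovered. Symbols and positions were taken from GENCODE M release 21 (52403 of 52550 identifiers matched).

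The filter of the study (CPM above 1 in 2 or more libraries), applied here to the recovered reads, left 14419 genes, which is not the number that the study gives. These were transformed to log2(normalized count + 1) and fitted in R 4.3.3 by limma 3.58.1, using eBayes with a trend and Benjamini-Hochberg adjustment. The recovered reads were also fitted by edgeR 4.0.16 (quasi-likelihood) and by DESeq2 1.42.0. Fold changes on this scale understate those of low genes. Genotypes were compared within a population, populations within a genotype, and the difference of both by an interaction over 11 libraries. Scripts were tested on simulated data.

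The members and lists were chosen with earlier results of these data known. Genes were named if called for genotype or interaction, if their unadjusted genotype p was under 0.05, if among the 8 highest ligands or receptors per kilobase in a population, if in a listed pair with both tested, or as Ccr6 and Cxcr6. Other genes (untested pair members, Xcr1, Cxcl2 and list genes) were named after their values were seen. Some genes that these rules select are left out of the text and figures, though they are part of the counts. Alternatives were pseudocounts of 0.5 and 8, no filter, a minimum mean of 10, quantile normalization, no trend, 1 fit over all libraries, a replicate block and omission of each library. A filter within the libraries compared was added after seeing the data. Libraries of 1 population were taken as separate mice. Whether KC and DETC libraries of the same number came from 1 mouse is not stated in the labels.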

Additional observations from a re-analysis of the deposited data

How the results depend on the processing

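In KCs, where limma called 2 chemokine genes higher and 2 lower, the higher count was 1 without a filter, with quantile normalization, without trend and in 1 fit over all 11 libraries. The lower count was 1 without a filter and 5 with DESeq2, with edgeR and with a filter within the libraries compared. Leaving out 1 library gave 0 to 1 higher and 0 to 2 lower. Over all genes DESeq2 called 1215 higher and 537 lower in KCs and edgeR 1192 and 591, against 775 and 267 by limma, and limma without 1 library called 5 to 552 higher and 0 to 169 lower.

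In DETCs, also 2 higher and 2 lower, the counts were 0 and 0 without a filter and without trend. Quantile normalization gave 1 higher, DESeq2 4 lower, and 1 fit over all libraries 5 lower. Leaving out 1 library gave 0 to 2 higher and 0 to 4 lower. Over all genes DESeq2 called 868 higher and 211 lower and edgeR 410 and 73, against 452 and 62 by limma, and limma without 1 library called 29 to 478 higher and 0 to 112 lower. The cause of these shifts was not tested, except that fewer libraries or more genes tested follow from the alternatives themselves.

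The interaction gave 0 called genes under the alternatives, apart from 1 higher without KC L2 (range 0 to 1 higher and 0 to 0 lower on leaving out 1 library). Between populations the counts stayed within 1.5 times of 21 and 13 in WT mice and 20 and 12 in LC-/- mice, with 20 to 21 and 12 to 13, and 18 to 20 and 10 to 12, on leaving out 1 library. No called gene changed sign under an alternative.

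A replicate block by the number in the label was fitted as well. Deviations of libraries with the same number correlated over 14039 genes with r of -0.0586 for W1, 0.0736 for W2, 0.12 for W3, 0.156 for L2 and 0.128 for L3. These values do not settle whether the numbers pair the samples. The fits above used no block, since the labels do not state that a shared number is a shared mouse. With the replicate block, limma called 21 chemokine genes higher and 13 lower in WT DETCs than in WT KCs, 20 and 11 in LC-/- mice, and 0 by the interaction, for which the calls over all genes fell from 89 higher and 26 lower to 17 and 1. Of 5 DETC libraries, 4 correlated best with the KC library of their own number, and W1 did not. The results of L2 and L3 were not independent, because DETC deviations from the mean of 2 LC-/- libraries mirror each other.

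Replication by 2 or 3 libraries limits the genotype comparisons, and 3 reads, the limit behind a count of 0, are 1.52e-05% to 2.22e-05% of a library. Genes with few reads, such as Ccl9, Ccr9 and Ccl27b, have wide intervals. Only transcripts were measured, so secreted or surface protein was not analysed here.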
